A study of Mus musculus with 32 samples.

Results

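The genes described here are 10 immediate early genes: the Fos family members Fos, Fosb and Fosl1, the Jun family members Jun, Junb and Jund, the zinc finger factors Egr1 and Klf4, the stress-response gene Ier3, and Myc. They were chosen by name, with earlier results of these data known. They are 10 of the 8251 genes with a probe set of their own, and all 14 probe sets annotated to them on the array were followed. RNA of C2C12 cells, a mouse myoblast line that leaves the cell cycle and fuses into myotubes when serum is withdrawn, was measured on 32 Affymetrix arrays. The first experiment, called the TSA arm, set cells given trichostatin A (TSA), which inhibits class I and II histone deacetylases, against control cells. Each condition was sampled in growth medium, called 0 h here, and 4, 12, 24 and 48 h after the change to differentiation medium (10 groups, 2 arrays each). The second, called the Sir2 arm, set cells named for the construct pHanSir2 against cells named for pHan, called vector cells here, both in differentiation medium for 12 or 36 h (4 groups, 3 arrays each). Sir2 is the name of the NAD-dependent deacetylase family whose closest mouse member is Sirt1. The dose and start of TSA treatment, how the Sir2 construct was brought into the cells, its promoter, and whether the cells were a pool or 1 clone are not given in the sources used here. Nothing in the labels says that replicates came from separate cultures, so p-values measure the spread between these arrays, which may be technical.

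Immediate early genes are transcribed within minutes of a growth factor, serum or stress signal, from factors that are already in the cell, and most of their RNAs are short-lived. Fos and Jun proteins pair through leucine zippers to form AP-1, which binds DNA as a dimer, while Egr1 and Klf4 bind GC-rich sites through zinc fingers and Myc binds E-boxes with its partner Max. In myoblasts, serum induces many such genes, and Jun, Fos and Myc are known to oppose the muscle programme when they are overexpressed. Of the genes followed here, Fosl1 was lower at 24 and 48 h than at 0 h in control cells, by the test given below. Klf4 was lower at 4 and 12 h and higher at 24 and 48 h, and Fos and Jund were higher at 48 h. The other genes passed the threshold at none of these times. Several of these differences were lost without 1 array, as given gene by gene below.

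Values are array intensities on a linear scale, and the arms were processed differently before deposit, so levels were compared only within an arm and within a probe set. Arrays of 1 group ranked their probe sets alike, with Spearman correlations of 0.970 to 0.978 in the Sir2 arm and 0.911 to 0.966 in the TSA arm, where the pair of control 48 h arrays was lowest. The ratio of the 3′ to the 5′ Gapdh probe sets, a measure of RNA integrity, averaged 0.815 ± 0.0438 in TSA cells and 0.866 ± 0.0415 in control cells (SD, n = 10 each, exact permutation test within times, two-sided p = 0.00823), and its part in the results below was not tested. In the Sir2 arm it averaged 0.78 ± 0.0579 in Sir2 cells and 0.834 ± 0.0442 in vector cells (SD, n = 6 each, exact permutation p = 0.07). All 10 skeletal muscle markers were above the filter on dim probe sets in both arms. Their summed intensity was 12142 to 12250 in TSA cells and 9817 to 10843 in control cells at 0 h, 15031 to 15474 in TSA cells and 10334 to 11651 in control cells at 4 h, and 21466 to 22572 in TSA cells and 18644 to 19664 in control cells at 12 h. It was 42321 to 45441 in TSA cells and 47629 to 49962 in control cells at 24 h, and 133253 to 155973 in TSA cells and 110656 to 122919 in control cells at 48 h, and its part in the results was not tested. Of markers of other cell types, 1 of 5 leukocyte, 1 of 4 endothelial, 1 of 3 adipocyte and 2 of 3 neuronal genes on the array passed the filter in the TSA arm. Those were Cd14 (group means 684 to 1300), Kdr (669.8 to 1186), Lep (649.6 to 1142), Nefl (26.8 to 616) and Stmn2 (2236 to 9013), whereas the leukocyte Cd3e was at or below 0 on 20 of 20 arrays, the endothelial Cdh5 on 18 and the neuronal Snap25 on 19. The summed neuronal markers were 9468 to 9744 in TSA cells and 8358 to 9027 in control cells at 0 h, and 2412 to 2556 in TSA cells and 2918 to 3086 in control cells at 48 h, and their part in the results was not tested. In these bulk samples, fewer cells of a type and less RNA per cell cannot be told apart.

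Averaged over the 5 times, 7 of the 10 genes differed between TSA and control cells: Junb, Ier3, Egr1 and Fos were higher in TSA cells, and Fosl1, Klf4 and Myc were lower. The test was limma's moderated test. A gene was called where its Benjamini-Hochberg adjusted p over all 7453 probe sets tested was under 0.05, which 22% of those probe sets were. In the Sir2 arm, where 9 of the 10 genes could be tested, 6 differed on the average of the 2 times: Fosl1, Ier3, Myc, Klf4 and Egr1 were higher in Sir2 cells and Jun was lower, against 12.6% of all probe sets called. Myc is in this count although it passed the filter only through its Sir2 36 h arrays, the group in which it was highest. The median log2 change of the genes was 0.26 for TSA minus control, where that of all probe sets tested was -0.03. It was 0.44 for Sir2 minus vector, where that of all was -0.01. A log2 change is a difference of means of log2(intensity + pseudocount), followed by its standard error, and it understates the change of dim genes. All 10 genes passed the filter on the mean over all arrays of the TSA arm, although Fos in control 0 h cells, Fosl1 in TSA and control 48 h cells, Jun in TSA 4 h cells, Klf4 in TSA 4 h cells and Myc in TSA 24 h cells averaged less than the filter value of 144.9.

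**Figure D1:**
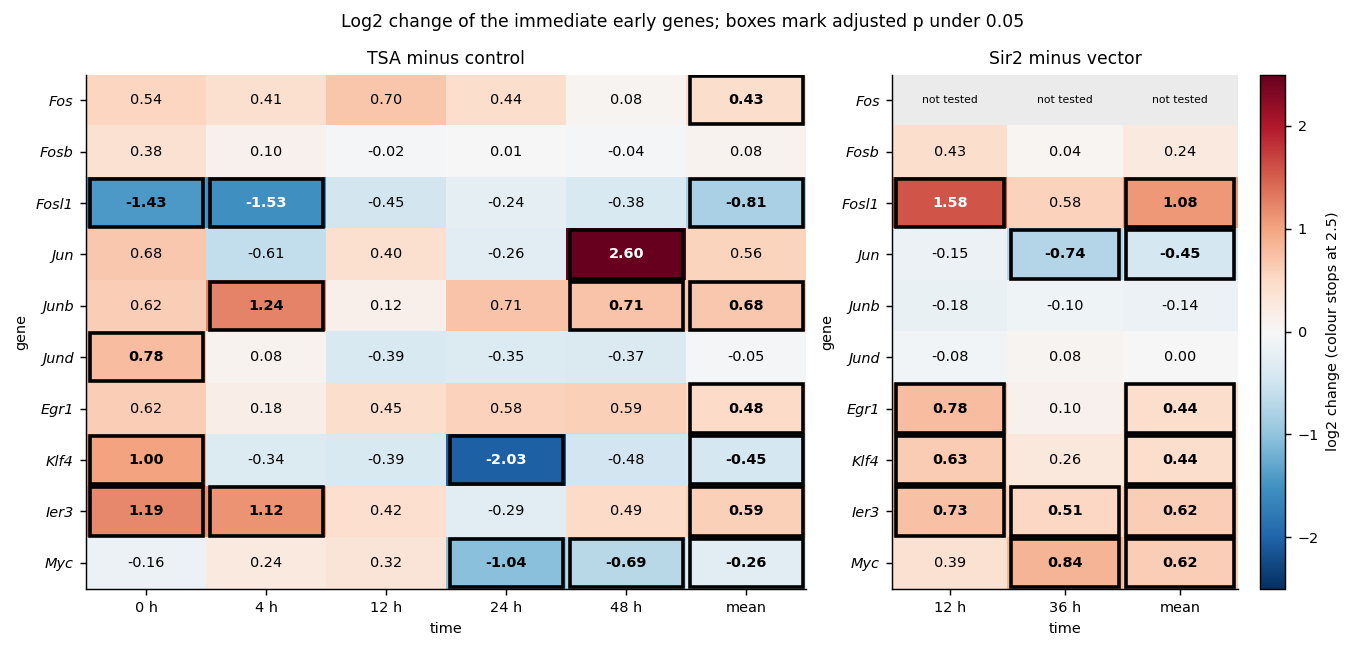
Log2 change of each gene (rows) by time (columns), for TSA minus control on the left and Sir2 minus vector on the right; blue is lower, red is higher, the colour stops at 2.5, and black boxes mark adjusted p under 0.05. Ier3 is boxed at 0 and 4 h and on the average in the TSA arm and in every column of the Sir2 arm, and Klf4 is 1.0 at 0 h and -2.03 at 24 h in the TSA arm.

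Single times gave fewer calls. At 0 h, in growth medium, TSA minus control called 4 of the 10 genes (17.9% of all probe sets): Ier3, Klf4 and Jund were higher in TSA cells and Fosl1 was lower. At 4 h it called 3 (11.4% of all), with Junb and Ier3 higher and Fosl1 lower. At 12 h limma called 0 of the 10 (4.08% of all), and 1 gene, Fos, had an unadjusted p under 0.05. At 24 h it called 2 (5.94% of all), Klf4 and Myc, both lower (3.27% of all were lower). At 48 h it called 3 (19.6% of all), with Jun and Junb higher and Myc lower. The TSA effect differed between times for 4 of the 10 genes, Klf4, Myc, Ier3 and Jund, in an F test that called 22.2% of all probe sets. With only the 4 arrays of 1 time in the fit, none of the calls at 4, 24 or 48 h was made (adjusted p 0.0592 to 0.266), so they rest on the spread estimated from all 20 arrays. With only the groups compared in the fit, these calls against 0 h were lost as well: Klf4 at control 4 and 12 h, Fos and Fosl1 at control 48 h, Jund, Myc and Klf4 at TSA 4 h, Ier3 at TSA 12 h, Myc at TSA 24 h, and Myc and Ier3 at TSA 48 h (adjusted p 0.0544 to 0.173).

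**Figure D2:**
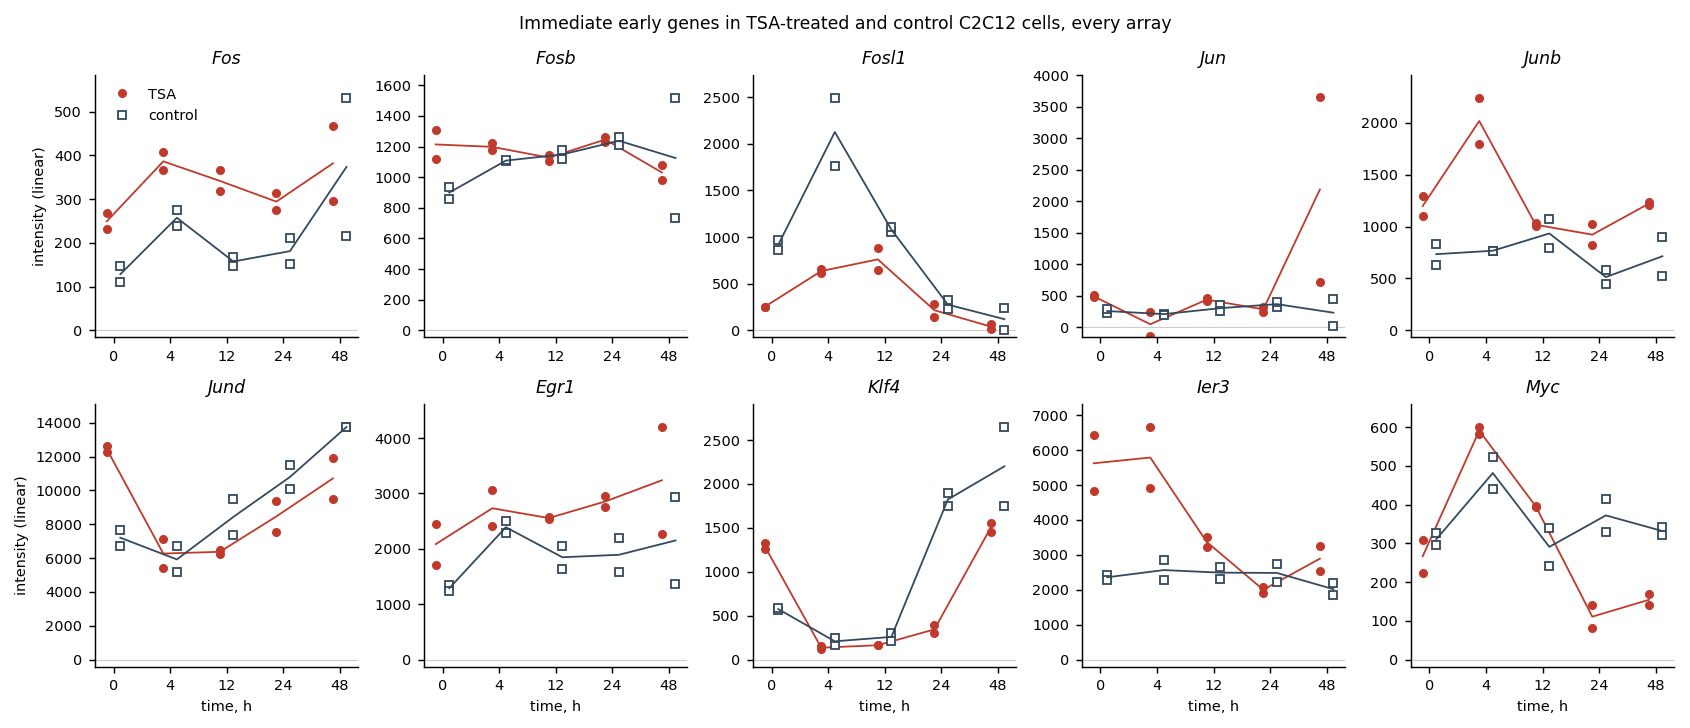
Intensity (linear scale, each panel with its own axis) of the 10 genes against time in differentiation medium, with 0 h in growth medium and the times evenly spaced; each point is 1 array (filled circles TSA, open squares control, 2 per group) and lines join group means. TSA arrays of Ier3 and Junb lie above control arrays at 4 h, control arrays of Fosl1 lie above TSA arrays at 0, 4 and 12 h, and the control arrays of Fosb, Jun, Egr1 and Fos spread widely at 48 h. The share of all probe sets whose groups separate was not counted.

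RefSeq start-site windows were at hand for 7 of the 10 genes, Fos, Fosb, Jun, Junb, Jund, Klf4 and Ier3 (build GRCm38.p6). The 4 of genes called on the average TSA difference are shown, each the 250 bases before the start, 5′ to 3′ on the gene's strand, with motif matches in capitals. They are Fos at chr12:85473640-85473889 (plus strand), Junb at chr8:84978749-84978998 (minus strand), Klf4 at chr4:55532476-55532725 (minus strand) and Ier3 at chr17:35821463-35821712 (plus strand).
Fos: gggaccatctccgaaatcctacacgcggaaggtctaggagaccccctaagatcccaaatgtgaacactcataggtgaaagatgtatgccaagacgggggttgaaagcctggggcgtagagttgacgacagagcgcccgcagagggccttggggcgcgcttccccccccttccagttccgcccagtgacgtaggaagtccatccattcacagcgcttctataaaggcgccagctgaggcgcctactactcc
Junb: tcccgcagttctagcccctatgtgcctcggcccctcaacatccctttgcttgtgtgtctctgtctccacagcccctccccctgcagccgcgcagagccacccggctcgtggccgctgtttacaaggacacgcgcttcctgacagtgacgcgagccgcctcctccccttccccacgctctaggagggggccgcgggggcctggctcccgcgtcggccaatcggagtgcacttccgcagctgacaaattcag
Klf4: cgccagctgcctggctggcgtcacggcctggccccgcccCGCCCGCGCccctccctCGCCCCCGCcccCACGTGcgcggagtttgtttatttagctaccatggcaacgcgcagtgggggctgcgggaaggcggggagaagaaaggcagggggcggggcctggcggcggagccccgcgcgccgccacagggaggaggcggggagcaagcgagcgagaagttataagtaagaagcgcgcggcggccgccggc
Ier3: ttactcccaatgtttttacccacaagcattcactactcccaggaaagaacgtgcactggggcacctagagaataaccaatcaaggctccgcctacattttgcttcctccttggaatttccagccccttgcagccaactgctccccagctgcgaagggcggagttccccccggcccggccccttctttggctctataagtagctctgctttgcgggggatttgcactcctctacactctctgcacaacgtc

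Each window was searched on both strands for 5 motifs: the CArG box that serum response factor binds, the AP-1 site TGANTCA, the cAMP response element TGACGTCA, the Egr site GCGNGGGCG and the Myc-type E-box CACGTG. Klf4 held 2 Egr sites, at bases 211 to 203 and 194 to 186 before its start, and 1 E-box at bases 182 to 177, and these are the capitals above. Fosb held 1 Egr site, at bases 50 to 42 before its start. None of the 5 motifs was matched in the other 5 windows, and no match overlapped another. Of all 32851 RefSeq windows of this length, 1.47% held a CArG box, 6.75% the AP-1 site, 1.55% the cAMP response element, 4.7% the Egr site and 6.02% the E-box. A match describes letters in the window and was not tested as a binding site.

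Fos encodes the best known partner of Jun in AP-1. TSA cells had Fos intensities of 231 and 267 at 0 h, 407 and 366 at 4 h and 317 and 366 at 12 h, and later 313 and 275 at 24 h and 297 and 467 at 48 h. Control cells had 110.2 and 147 at 0 h, 276 and 239 at 4 h and 168 and 147 at 12 h. Later control Fos values were 211 and 151 at 24 h and 532 and 216 at 48 h. Both TSA arrays were above both control arrays at 0, 4, 12 and 24 h, and at 48 h, where the control arrays lay far apart, the groups overlapped. Groups this small often separate without a true difference, and the share of all probe sets that separated was not counted. For Fos and the genes below, separation without a call therefore only describes the arrays. On the average of the 5 times Fos was higher in TSA cells (log2 change 0.43 ± 0.11, adjusted p = 0.0118), while no single time was called, the nearest being 12 h with 0.70 ± 0.24 (adjusted p = 0.155). The average call held without each of the 20 arrays in turn. In control cells Fos was higher at 48 h than at 0 h (log2 change 0.87 ± 0.24, adjusted p = 0.0137), a call lost without control 48 h replicate 1 (log2 change 0.41, adjusted p = 0.145) or control 0 h replicate 1 (adjusted p = 0.089). Without control 48 h replicate 2 the change was 1.33. A second, dimmer Fos probe set had a mean below the filter and was not tested. The genes whose 10 group means followed those of Fos most closely were Cryab, a small heat shock protein (Pearson r = 0.938), Rnf44 (0.93) and Dnajb9, an endoplasmic reticulum chaperone (0.877), as a description over 10 groups that share arrays and processing.

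Fosb, a further Fos protein, varied least of the 10 genes between groups. TSA cells had 1309.7 and 1118 at 0 h, 1175 and 1222 at 4 h and 1108 and 1148 at 12 h, and later 1260.0 and 1232 at 24 h and 1079 and 983 at 48 h. Control cells had 860.4 and 939 at 0 h, 1108 and 1109 at 4 h and 1181 and 1117 at 12 h. Later control Fosb values were 1265 and 1211 at 24 h and 732 and 1519 at 48 h. TSA arrays were above control arrays at 0 and 4 h and the groups overlapped at 12, 24 and 48 h. The control arrays at 48 h were the lowest and the highest of the whole arm. No comparison of the TSA arm called Fosb, and its average change was 0.08 ± 0.09 (adjusted p = 0.579).

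Fosl1 encodes Fra-1, a Fos protein without the strong activation domain of Fos. It was lower in TSA cells at 0 and 4 h. TSA cells had 253 and 252 at 0 h, 614 and 657 at 4 h and 643 and 879 at 12 h, and later 286 and 146 at 24 h and 17 and 63.1 at 48 h. Control cells had 863 and 972 at 0 h, 1758 and 2492 at 4 h and 1057 and 1103 at 12 h. Later control Fosl1 values were 228 and 324 at 24 h and 1.5 and 239 at 48 h. Every control array was above every TSA array at 0, 4 and 12 h, and the groups overlapped at 24 and 48 h, when both were low. The control mean was 3.63 times the TSA mean at 0 h (log2 change -1.43 ± 0.36, adjusted p = 0.0145) and 3.34 times at 4 h (log2 change -1.53 ± 0.36, adjusted p = 0.0156). At 12, 24 and 48 h the change was -0.45 ± 0.36 (adjusted p = 0.595), -0.24 ± 0.36 (adjusted p = 0.805) and -0.38 ± 0.36 (adjusted p = 0.509), and over the 5 times it was -0.81 ± 0.16 (adjusted p = 0.00292). A difference of the effect between times was not called (adjusted p = 0.16). The 0 h call was lost without either TSA 0 h array or either control 0 h array (adjusted p 0.0584 to 0.0876), and the 4 h call without either TSA 4 h array or control 4 h replicate 2 (0.0606 to 0.122). With a smaller pseudocount the 4 h call was also lost (adjusted p = 0.062), while the average call held in every setting tried.

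Fosl1 also changed along both time courses. In control cells it was lower than at 0 h at 24 h (log2 change -1.36 ± 0.36, adjusted p = 0.0257) and at 48 h (log2 change -2.20 ± 0.36, adjusted p = 0.000418), and the 4 h change of 1.08 ± 0.36 (adjusted p = 0.162) was not called although both control arrays at 4 h were above both at 0 h. The 24 h call was lost without any 1 of the 4 control arrays at 0 and 24 h (adjusted p 0.0714 to 0.133), and also with no filter (0.0525), the smaller pseudocount (0.0717) or the covariate for titles with the suffix b (0.0571). In TSA cells Fosl1 was higher at 12 h than at 0 h (log2 change 1.19 ± 0.36, adjusted p = 0.0389) and lower at 48 h (log2 change -1.15 ± 0.36, adjusted p = 0.0326). The TSA 12 h call was lost without any 1 of the 6 TSA arrays at 0, 4 and 12 h or the 4 control arrays at 0 and 12 h (adjusted p 0.0506 to 0.219), and with no filter (0.0777) or the smaller pseudocount (0.096). The TSA 48 h call was lost without any 1 of the 4 TSA arrays at 0 and 48 h (0.0568 to 0.16), and with no filter (0.0649) or that covariate (0.0715). Closest to its 10 group means were those of Ank, a pyrophosphate transport regulator (r = 0.971), Krr1 (0.961) and Gar1 (0.947), the last a component of ribonucleoproteins that modify ribosomal RNA.

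Jun encodes the founding Jun protein, and its values were the least repeatable of the 10. TSA cells had Jun intensities of 506 and 473 at 0 h, 233 and -141 at 4 h and 456 and 418 at 12 h, and later 320.0 and 245 at 24 h and 724 and 3648 at 48 h. Control cells had 283 and 227 at 0 h, 214 and 199.8 at 4 h and 349 and 254 at 12 h. Later control Jun values were 406 and 326 at 24 h and 444 and 14.1 at 48 h. Both TSA arrays were above both control arrays at 0, 12 and 48 h and below them at 24 h, and at 4 h TSA replicate 2 was below 0. Jun was called higher in TSA cells at 48 h (log2 change 2.60 ± 0.66, adjusted p = 0.0152), where 1 TSA array was far above every other array of the arm and 1 control array was near 0. That call was lost without TSA 48 h replicate 2 (log2 change 1.53, adjusted p = 0.148) or without control 48 h replicate 2 (1.63, adjusted p = 0.135). No other comparison of the TSA arm called Jun, and the average change was 0.56 ± 0.29 (adjusted p = 0.207).

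Junb encodes a Jun protein that can restrain Jun activity, and it was higher in TSA cells on average. TSA cells had Junb intensities of 1299 and 1098 at 0 h, 2242 and 1794 at 4 h and 1031 and 1004 at 12 h, and later 1025 and 820.3 at 24 h and 1237 and 1205 at 48 h. Control cells had 633 and 836 at 0 h, 766 and 769 at 4 h and 1073 and 795 at 12 h. Later control Junb values were 584 and 443 at 24 h and 528 and 901 at 48 h. Both TSA arrays were above both control arrays at 0, 4, 24 and 48 h, and the groups overlapped at 12 h. The TSA mean was 2.63 times the control mean at 4 h (log2 change 1.24 ± 0.22, adjusted p = 0.00231) and 1.71 times at 48 h (log2 change 0.71 ± 0.22, adjusted p = 0.0369). Over the 5 times the change was 0.68 ± 0.10 (adjusted p = 0.000279). At 0 and 24 h the changes of 0.62 ± 0.22 (adjusted p = 0.0682) and 0.71 ± 0.22 (adjusted p = 0.0819) were not called. The 4 h and average calls held without each array, while the 48 h call was lost without control 48 h replicate 1, either TSA 48 h array or either TSA 12 h array (adjusted p 0.051 to 0.262). Without control 48 h replicate 1 the 48 h change was 0.39. With no filter the call was also lost (adjusted p = 0.0552). No time was called against 0 h in either condition.

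A second, dimmer Junb probe set was less repeatable. In TSA cells it read 720.4 and 1679.5 at 0 h, 2373 and 1275 at 4 h and 1789 and 1764 at 12 h, and then 980.4 and 895 at 24 h and 633 and 1141 at 48 h. In control cells it read 1185 and 362 at 0 h, 172 and 292 at 4 h and 1022 and 1285 at 12 h, and then 329 and 506 at 24 h and 257 and 1179 at 48 h. At 4 h both TSA arrays were again above both control arrays (log2 change 2.37 ± 0.57, adjusted p = 0.0182), and the average change was 1.0 ± 0.26 (adjusted p = 0.0132). The 10 group means of the brighter probe set were followed most closely by Dusp1, a phosphatase of MAP kinases that is itself an immediate early gene (r = 0.895), Socs1, an inhibitor of cytokine signalling (0.889), and Cdon, a muscle cell surface receptor (0.88).

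Jund encodes the Jun protein that is known for steady expression in many resting cells, and its course in TSA cells differed from that in control cells. TSA cells had Jund intensities of 12642 and 12265 at 0 h, 7104 and 5435 at 4 h and 6243 and 6502 at 12 h, and later 7544 and 9388 at 24 h and 9477 and 11950.0 at 48 h. Control cells had 6735 and 7678 at 0 h, 5159 and 6687 at 4 h and 9502 and 7377 at 12 h. Later control Jund values were 11492 and 10104 at 24 h and 13756 and 13750.0 at 48 h. TSA arrays were above control arrays at 0 h, overlapped them at 4 h, and were below them at 12, 24 and 48 h. Jund was called higher in TSA cells at 0 h (log2 change 0.78 ± 0.19, adjusted p = 0.0108), and the changes of -0.39 ± 0.19, -0.35 ± 0.19 and -0.37 ± 0.19 at 12, 24 and 48 h were not called (adjusted p 0.195 to 0.359). The effect differed between times (F test, adjusted p = 0.0199). The 0 h call was lost without TSA 0 h replicate 1 (adjusted p = 0.066) or control 0 h replicate 1 (0.0904), and the F test call without either TSA 0 h array or control 0 h replicate 1 (0.0613 to 0.0871). Jund was lower in TSA cells at 4 h than at 0 h (log2 change -0.99 ± 0.19, adjusted p = 0.00788) and at 12 h (log2 change -0.95 ± 0.19, adjusted p = 0.00375), and higher in control cells at 48 h than at 0 h (log2 change 0.92 ± 0.19, adjusted p = 0.00196). Of these, the TSA 4 h call was lost without TSA 4 h replicate 2 (adjusted p = 0.0913) or TSA 0 h replicate 1 (0.0647). The gene closest to Jund in its 10 group means was another member, Klf4 (r = 0.915), followed by Aktip (0.901) and Sars, a tRNA synthetase (0.882).

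Egr1, a zinc finger activator that serum induces within minutes, was higher in TSA cells on average only. TSA cells had Egr1 intensities of 1715 and 2454 at 0 h, 2408 and 3056 at 4 h and 2568 and 2542 at 12 h, and later 2757 and 2954 at 24 h and 2276 and 4199.7 at 48 h. Control cells had 1231 and 1346 at 0 h, 2282 and 2498 at 4 h and 1639 and 2056 at 12 h. Later control Egr1 values were 2196 and 1587 at 24 h and 2932 and 1369 at 48 h. Both TSA arrays were above both control arrays at 0, 12 and 24 h, and the groups overlapped at 4 and 48 h. The average change was 0.48 ± 0.14 (adjusted p = 0.0306), and single times ranged between 0.18 ± 0.32 at 4 h and 0.62 ± 0.32 at 0 h, none of them called. The average call was lost without any 1 of 11 of the 20 arrays: control 0 h replicates 1 and 2, control 4 h replicate 1, control 12 h replicate 1, control 24 h replicate 3, TSA 0 h replicate 2, TSA 4 h replicate 2, TSA 12 h replicates 1 and 2, TSA 24 h replicate 3 and TSA 48 h replicate 2 (adjusted p 0.0505 to 0.0677). It was also lost with no filter (adjusted p = 0.061). No time was called against 0 h in either condition, with control 4 h at 0.83 ± 0.32 (adjusted p = 0.237). A second, dimmer Egr1 probe set had a mean below the filter and was not tested. Nearest to the group means of the brighter probe set were Phtf2 (r = 0.88), Susd6 (0.867) and Rnf44 (0.859).

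Klf4, a zinc finger factor known for its role in pluripotent and epithelial cells, had the clearest change of direction. TSA cells had Klf4 intensities of 1258 and 1324 at 0 h, 155 and 115 at 4 h and 165 and 161 at 12 h, and later 297 and 389.5 at 24 h and 1449 and 1561 at 48 h. Control cells had 588 and 561 at 0 h, 171 and 245 at 4 h and 305 and 211 at 12 h. Later control Klf4 values were 1752 and 1895 at 24 h and 2649 and 1753 at 48 h. TSA arrays were above control arrays at 0 h and below them at 4, 12, 24 and 48 h, with the widest gap at 24 h, when control arrays were already high and TSA arrays were still low. The TSA mean was 2.25 times the control mean at 0 h (log2 change 1.0 ± 0.19, adjusted p = 0.00212), and the control mean was 5.31 times the TSA mean at 24 h (log2 change -2.03 ± 0.19, adjusted p = 4.61e-05). At 4, 12 and 48 h the changes of -0.34 ± 0.19 (adjusted p = 0.303), -0.39 ± 0.19 (adjusted p = 0.32) and -0.48 ± 0.19 (adjusted p = 0.0893) were not called, and the average was -0.45 ± 0.08 (adjusted p = 0.00182). The effect differed between times (F test, adjusted p = 8.53e-05). The calls at 0 and 24 h, the average and the F test held without each array.

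Klf4 moved in both directions along the control time course. It was lower than at 0 h at 4 h (log2 change -1.05 ± 0.19, adjusted p = 0.0121) and at 12 h (log2 change -0.86 ± 0.19, adjusted p = 0.0209). It was 1 of 10 members called at each of these times, where 2.05% and 5.23% of all probe sets were called and 0.966% and 3.13% were lower. It was higher than at 0 h at 24 h (log2 change 1.46 ± 0.19, adjusted p = 0.000293) and at 48 h (log2 change 1.69 ± 0.19, adjusted p = 1.64e-05). At these times 2 and 4 of the 10 genes were called, with 12.9% and 35.3% of all probe sets. In TSA cells it was lower than at 0 h at 4 h (log2 change -2.39 ± 0.19, adjusted p = 4.27e-05), 12 h (log2 change -2.25 ± 0.19, adjusted p = 7.71e-06) and 24 h (log2 change -1.58 ± 0.19, adjusted p = 9.39e-05), and at 48 h the change was 0.20 ± 0.19 (adjusted p = 0.487). Among TSA cells against their 0 h, 3, 4, 3 and 3 of the 10 genes were called at 4, 12, 24 and 48 h, with 6%, 16.7%, 16.6% and 26.4% of all probe sets. All those at 24 and 48 h were lower, as 7.65% and 14.2% of all probe sets were. All comparisons with 0 h within a condition share the same 0 h arrays, and control 0 h and TSA 0 h arrays also enter the 0 h comparison of TSA with control. The control 4 h call was lost without either control 0 h array or control 4 h replicate 1 (adjusted p 0.077 to 0.139), and the control 12 h call without either control 0 h array or control 12 h replicate 2 (0.111 to 0.177). A second, dimmer Klf4 probe set had a mean below the filter and was not tested. Sars (r = 0.949), Dhrs7 (0.948) and Ubxn1 (0.935) had the 10 group means most like those of Klf4.

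Ier3 encodes a small protein, not a DNA-binding factor, that is induced by growth factors and stress and modulates ERK signalling and cell survival. TSA cells had Ier3 intensities of 4827 and 6422 at 0 h, 6665 and 4914 at 4 h and 3226 and 3512 at 12 h, and later 2082 and 1919 at 24 h and 3242 and 2542 at 48 h. Control cells had 2279 and 2437 at 0 h, 2844 and 2285 at 4 h and 2658 and 2322 at 12 h. Later control Ier3 values were 2731 and 2233 at 24 h and 2191 and 1842 at 48 h. Control arrays stayed within a narrow band at all times, and TSA arrays were above them at 0, 4, 12 and 48 h and below them at 24 h. The TSA mean was 2.39 times the control mean at 0 h (log2 change 1.19 ± 0.19, adjusted p = 0.000856) and 2.26 times at 4 h (log2 change 1.12 ± 0.19, adjusted p = 0.00217). At 12, 24 and 48 h the changes were 0.42 ± 0.19 (adjusted p = 0.299), -0.29 ± 0.19 (adjusted p = 0.499) and 0.49 ± 0.19 (adjusted p = 0.0993), and the average was 0.59 ± 0.09 (adjusted p = 0.000343). The effect differed between times (F test, adjusted p = 0.00796), and this call, the average and the calls at 0 and 4 h held without each array. No control time was called against control 0 h. In TSA cells Ier3 was lower than at 0 h at 12 h (log2 change -0.70 ± 0.19, adjusted p = 0.0246), 24 h (log2 change -1.42 ± 0.19, adjusted p = 0.000313) and 48 h (log2 change -0.92 ± 0.19, adjusted p = 0.00333). The TSA 12 h call was lost without either TSA 12 h array or TSA 0 h replicate 2 (adjusted p 0.0795 to 0.206). Cd34 (r = 0.958), a cell surface protein of progenitor cells, Sprr1a (0.953), a cornified envelope protein, and Nefl (0.939), the light neurofilament chain, had the group means most like those of Ier3.

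Myc, the growth and ribosome biogenesis factor, was lower in TSA cells late in the series. TSA cells had Myc intensities of 309 and 224 at 0 h, 600.1 and 581 at 4 h and 394 and 397 at 12 h, and later 140.3 and 81 at 24 h and 168 and 140.0 at 48 h. Control cells had 295 and 325 at 0 h, 522 and 441 at 4 h and 341 and 241 at 12 h. Later control Myc values were 329.9 and 414 at 24 h and 341 and 322 at 48 h. Both TSA arrays were above both control arrays at 4 and 12 h and below them at 24 and 48 h, and the groups overlapped at 0 h. The control mean was 3.36 times the TSA mean at 24 h (log2 change -1.04 ± 0.16, adjusted p = 0.00169) and 2.15 times at 48 h (log2 change -0.69 ± 0.16, adjusted p = 0.00918), and the changes of 0.24 ± 0.16 (adjusted p = 0.412) at 4 h and 0.32 ± 0.16 (adjusted p = 0.33) at 12 h were not called. The average was -0.26 ± 0.07 (adjusted p = 0.0174), and the effect differed between times (F test, adjusted p = 0.00254). The 24 h, average and F test calls held without each array, and the 48 h call was lost without TSA 48 h replicate 2 (adjusted p = 0.0643). In TSA cells Myc was higher at 4 h than at 0 h (log2 change 0.86 ± 0.16, adjusted p = 0.00726) and lower at 24 h (log2 change -0.70 ± 0.16, adjusted p = 0.00885) and 48 h (log2 change -0.46 ± 0.16, adjusted p = 0.0479), and no control time was called. The TSA 4 h call was lost without TSA 0 h replicate 2 (adjusted p = 0.0771), the TSA 24 h call without TSA 24 h replicate 3 (0.0966) or TSA 0 h replicate 1 (0.0968), and the TSA 48 h call without any 1 of 13 arrays (0.0541 to 0.31). Those 13 are all but TSA 0 h replicate 2 and the TSA 24 h, control 12 h and control 24 h arrays. The TSA 48 h call was also lost with no filter (adjusted p = 0.0546) and under 6 other settings (0.0503 to 0.157). The 10 group means of Nup54 (r = 0.92), Srms (0.906) and Ppan (0.881), the last a ribosome biogenesis factor, were closest to those of Myc.

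In the Sir2 arm the gene that the construct is named for was checked first. The Sirt1 probe set read 37.5, 48.7 and 39.9 in Sir2 cells and 20.3, 9.48 and 14.2 in vector cells at 12 h (log2 change 1.14 ± 0.27, adjusted p = 0.0316), with every Sir2 array above every vector array. At 36 h it read 80.5, 69.2 and 35.8 in Sir2 cells and 39.4, 19.6 and 36.9 in vector cells (log2 change 0.77 ± 0.27, adjusted p = 0.106), and the groups overlapped. Like Myc, Sirt1 passed the filter only through its Sir2 36 h arrays, the group in which it was highest, which limits this check. The summed intensity of the 10 skeletal muscle markers was 5518 to 6228 in Sir2 cells and 9477 to 10148 in vector cells at 12 h, and 19080 to 23068 in Sir2 cells and 26902 to 27501 in vector cells at 36 h, and its part in the results that follow was not tested. The summed neuronal markers were 394 to 417 in Sir2 cells and 261 to 355 in vector cells at 12 h, and 337 to 403 in Sir2 cells and 266 to 323 in vector cells at 36 h, and their part was not tested either.

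**Figure D3:**
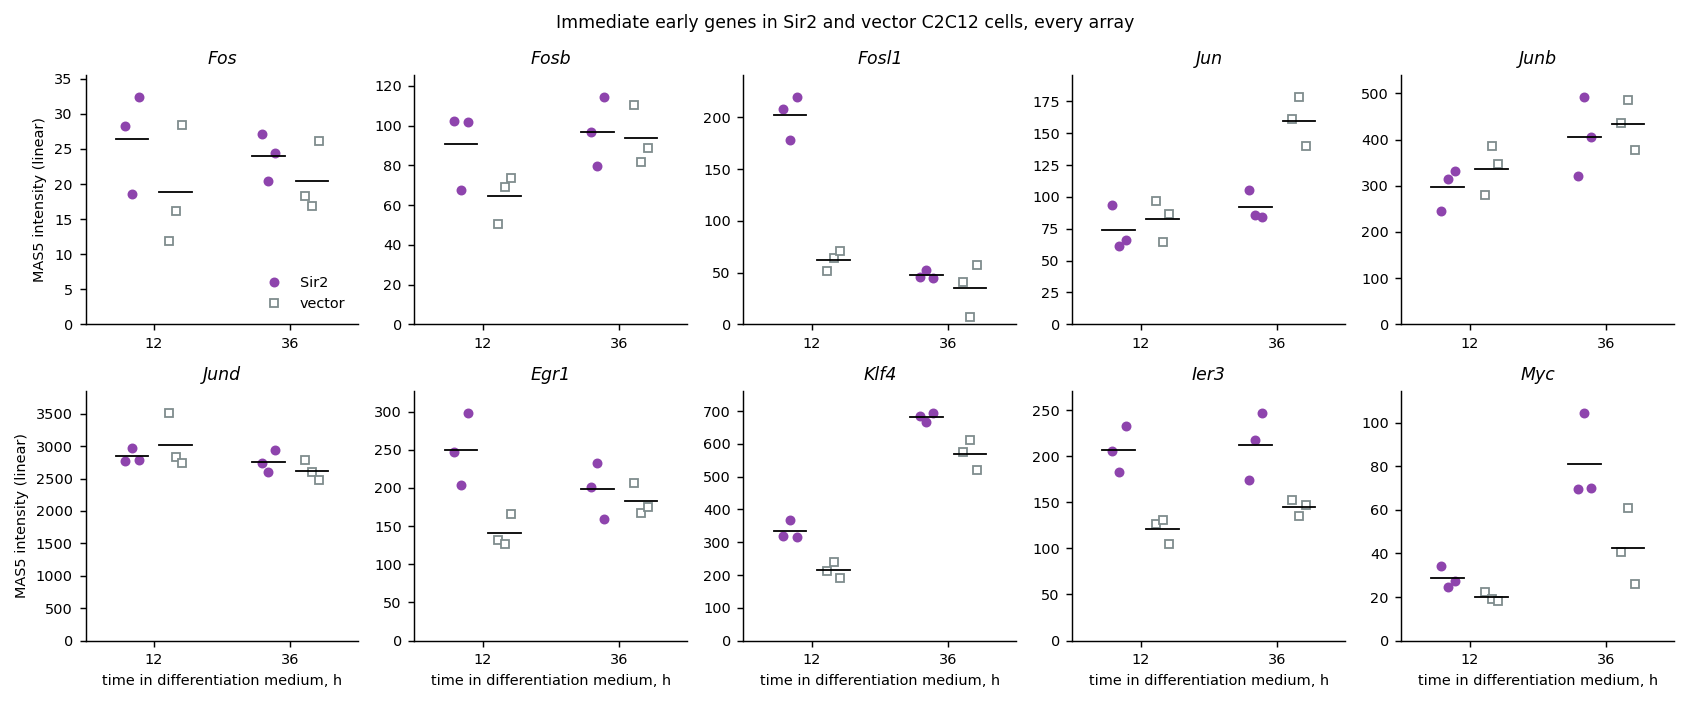
MAS5 intensity (linear scale from 0, each panel with its own axis) of the 10 genes at 12 and 36 h in differentiation medium; each point is 1 array (filled circles Sir2, open squares vector, 3 per group) and short black lines are group means. Sir2 arrays lie above all vector arrays for Fosl1, Egr1, Klf4, Ier3 and Myc at 12 h and for Klf4, Ier3 and Myc at 36 h, and below them for Jun at 36 h. The share of all probe sets separated in this way was not counted.

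At 12 h, Sir2 minus vector called 4 of the 9 genes tested, all higher in Sir2 cells, where 5.55% of all probe sets were called in either direction and 2.78% were higher. Fosl1 had intensities of 209, 219.5 and 178 in Sir2 cells and 51.9, 63.7 and 70.5 in vector cells, so that every Sir2 array was far above every vector array (log2 change 1.58 ± 0.38, adjusted p = 0.034). Ier3 had 206, 233 and 183 in Sir2 cells and 127, 131 and 105 in vector cells, again without overlap (log2 change 0.73 ± 0.14, adjusted p = 0.0107). Egr1 had 247, 298 and 204 in Sir2 cells and 132, 126 and 166 in vector cells (log2 change 0.78 ± 0.17, adjusted p = 0.0224). Klf4 had 321, 317 and 369 in Sir2 cells and 213, 239.8 and 191 in vector cells (log2 change 0.63 ± 0.11, adjusted p = 0.00754). For all 4 genes the lowest Sir2 array was above the highest vector array, and the share of all probe sets separated in this way was not counted. The Sir2 mean was 3.26 times the vector mean for Fosl1, 1.76 times for Egr1, 1.71 times for Ier3 and 1.56 times for Klf4. The Klf4 call held without each array, whereas the Fosl1 call was lost without any 1 of the 6 arrays at 12 h (adjusted p 0.0628 to 0.106). The Egr1 call was lost without Sir2 12 h replicates 1 or 2 or vector 12 h replicates 1 or 2 (0.0701 to 0.0919), and the Ier3 call without Sir2 12 h replicate 2 or vector 12 h replicate 3 (0.051 to 0.0537). With no filter, Egr1 and Fosl1 were not called (adjusted p = 0.0568 and 0.0794), and with the smaller pseudocount Fosl1 was not (0.064). With only the 12 h arrays in the fit, Egr1 and Klf4 were not (0.0614 and 0.0524).

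At 36 h, 3 of the 9 genes were called (9.26% of all probe sets): Ier3 and Myc were higher in Sir2 cells and Jun was lower. Ier3 had 247, 174 and 217 in Sir2 cells and 152, 136 and 147 in vector cells (log2 change 0.51 ± 0.14, adjusted p = 0.0433). Myc had 69.9, 69.5 and 104 in Sir2 cells and 40.6, 61.1 and 26 in vector cells (log2 change 0.84 ± 0.23, adjusted p = 0.0359), but without the Sir2 36 h arrays its mean was under the filter value, so a gene that passed in this way had to be higher there. Jun had 84.4, 106 and 86 in Sir2 cells and 161, 178 and 139.7 in vector cells (log2 change -0.74 ± 0.18, adjusted p = 0.0218). None of these 3 pairs of groups overlapped, with Myc the closest to doing so. The share of all probe sets separated in this way was not counted here either, so separation only describes the arrays. The Ier3 call was lost without any 1 of 8 of the 12 arrays, namely Sir2 12 h replicate 1, Sir2 36 h replicates 1 and 3, vector 12 h replicates 1 and 2 and all 3 vector 36 h arrays (adjusted p 0.0512 to 0.156). The Myc call was lost without Sir2 12 h replicate 2, any Sir2 36 h array or vector 36 h replicates 1 or 3 (0.0502 to 0.129), and the Jun call without Sir2 36 h replicates 1 or 3 or vector 36 h replicates 1 or 2 (0.064 to 0.0795). With no filter, Ier3 and Myc were not called (adjusted p = 0.0889 and 0.0751), nor with only the 36 h arrays in the fit (0.0787 and 0.101). Klf4 had 693, 684 and 667 in Sir2 cells and 574, 613 and 521 in vector cells, which did not overlap, but its change of 0.26 ± 0.11 (adjusted p = 0.199) was not called. Egr1 and Fosl1, both called at 12 h, overlapped between the groups at 36 h. Egr1 had 159.8, 202 and 233 in Sir2 cells and 206, 167 and 176 in vector cells. Fosl1 had 44.6, 45.3 and 52.2 in Sir2 cells and 41.2, 7.09 and 57.4 in vector cells.

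For the difference of the Sir2 effect at 36 h from that at 12 h, limma called 0 of 9 genes (1.76% of all probe sets). At an unadjusted p under 0.05 there were 3 of 9: Egr1 with -0.68 ± 0.24 (adjusted p = 0.207), Jun with -0.59 ± 0.25 (adjusted p = 0.292) and Klf4 with -0.37 ± 0.16 (adjusted p = 0.313). The average over the 2 times was 0.62 ± 0.10 (adjusted p = 0.00161) for Ier3, 0.44 ± 0.08 (adjusted p = 0.0036) for Klf4 and 1.08 ± 0.27 (adjusted p = 0.0222) for Fosl1. It was 0.62 ± 0.16 (adjusted p = 0.0253) for Myc, with the same limit of the filter, 0.44 ± 0.12 (adjusted p = 0.0357) for Egr1 and -0.45 ± 0.13 (adjusted p = 0.0367) for Jun. The Ier3 and Klf4 averages were called without each array in turn. The Jun average was lost without any 1 of 8 arrays, all but Sir2 12 h replicate 1, Sir2 36 h replicate 2, vector 12 h replicate 2 and vector 36 h replicate 3 (adjusted p 0.0711 to 0.0855). The Egr1 average was lost without any 1 of 8, all but Sir2 12 h replicate 3, Sir2 36 h replicate 1, vector 12 h replicate 3 and vector 36 h replicate 1 (0.0671 to 0.0833). The Myc average was lost without Sir2 12 h replicate 1, Sir2 36 h replicate 3 or vector 12 h replicate 3 (0.0582 to 0.0608), and the Fosl1 average without Sir2 12 h replicate 2, Sir2 36 h replicate 3 or vector 12 h replicate 1 (0.0509 to 0.053). With no filter the averages of Fosl1, Myc, Egr1 and Jun were not called (adjusted p = 0.0503, 0.0563, 0.0757 and 0.0773).

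Fosb, Junb and Jund were not called at either time, nor on average. Their average changes were 0.24 ± 0.13 (adjusted p = 0.302), -0.14 ± 0.13 (adjusted p = 0.549) and 0.00 ± 0.08 (adjusted p = 0.997). Jund had 2777, 2791 and 2974 in Sir2 cells and 3506, 2829 and 2736 in vector cells at 12 h. It had 2948, 2737 and 2603 in Sir2 cells and 2781, 2599 and 2477 in vector cells at 36 h, with overlap at both times. Fos was below the filter value of 31.1 on its mean over the arm and was not tested. It had 28.3, 32.4 and 18.5 in Sir2 cells and 11.9, 16.2 and 28.5 in vector cells at 12 h and 24.4, 27.2 and 20.4 in Sir2 cells and 18.3, 16.9 and 26.1 in vector cells at 36 h. These Fos values overlapped at both times.

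Between 12 and 36 h, 3 of the 9 genes were called in Sir2 cells and 3 in vector cells, where 28.5% and 32.1% of all probe sets were. All 3 in vector cells were higher at 36 h, as 12.4% of all were. Klf4 was higher at 36 h than at 12 h in Sir2 cells (log2 change 1.01 ± 0.11, adjusted p = 3.73e-05) and in vector cells (log2 change 1.38 ± 0.11, adjusted p = 3.14e-06). Myc was also higher in Sir2 cells (log2 change 1.25 ± 0.23, adjusted p = 0.00131) and in vector cells (log2 change 0.79 ± 0.23, adjusted p = 0.0188). Fosl1 was lower at 36 h in Sir2 cells (log2 change -1.91 ± 0.38, adjusted p = 0.0028), with a change of -0.91 ± 0.38 (adjusted p = 0.092) in vector cells. Jun was higher at 36 h in vector cells (log2 change 0.89 ± 0.18, adjusted p = 0.00234), with a change of 0.30 ± 0.18 (adjusted p = 0.236) in Sir2 cells. The filter limits Myc here too, since its 12 h values of 34.4, 27.2 and 24.7 in Sir2 cells and 22.1, 19.2 and 18.1 in vector cells were mostly below the filter value. The Myc call in vector cells was lost without vector 12 h replicates 2 or 3 or vector 36 h replicate 2 (adjusted p 0.0528 to 0.0676).

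The 2 arms share no arrays and can be read side by side, gene by gene, by their average changes. Ier3 was called higher in both, at 0.59 ± 0.09 for TSA minus control and 0.62 ± 0.10 for Sir2 minus vector. So was Egr1, at 0.48 ± 0.14 for TSA and 0.44 ± 0.12 for Sir2. Fosl1 was called lower with TSA (-0.81 ± 0.16) and higher with Sir2 (1.08 ± 0.27), as were Myc (-0.26 ± 0.07 with TSA and 0.62 ± 0.16 with Sir2, where it passed the filter only through Sir2 36 h arrays) and Klf4 (-0.45 ± 0.08 with TSA and 0.44 ± 0.08 with Sir2). Junb was called higher with TSA (0.68 ± 0.10) and was -0.14 ± 0.13 with Sir2, not called. Jun was called lower with Sir2 (-0.45 ± 0.13) and was 0.56 ± 0.29 with TSA, not called. The TSA averages of Klf4, Myc and Ier3 join effects that differed between times in the F test. For Klf4 the TSA change was 1.0 at 0 h and -2.03 at 24 h. At 12 h, the time that both arms share, TSA minus control called 0 of the 10 genes. The difference between the arms was not tested, since the arrays were processed and scaled separately and the controls and times differ.

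Other genes of the same response were read from lists chosen with earlier results of these data known, and values with ± are log2 changes with their standard errors. Of 32 other immediate early and delayed early products tested, such as phosphatases, RNA-binding proteins and secreted factors, 10 were higher and 0 lower in TSA cells at 0 h (17.9% of all probe sets called), and 8 were higher and 2 lower at 4 h (11.4%). At 12 h 3 were higher and 2 lower (4.08%), at 24 h 7 and 3 (5.94%), and at 48 h 8 and 4 (19.6%). Their median log2 change was 0.34 at 0 h and 0.24 at 4 h, where that of all probe sets tested was 0.00 and -0.04. Ccn2, a matricellular growth factor, averaged 2082 in TSA cells and 189 in control cells at 0 h (2.77 ± 0.21, adjusted p = 2.89e-06). At 4 h, Ptgs2, the inducible cyclooxygenase, averaged 3593 in TSA cells and 930.4 in control cells (1.80 ± 0.30, adjusted p = 0.0019). Dusp1 averaged 1606 in TSA cells and 383 in control cells (1.74 ± 0.29, adjusted p = 0.00194). Plk2, a polo-like kinase, was higher in TSA cells at 0 h (1.42 ± 0.13, adjusted p = 1.27e-05) and lower at 48 h (-1.36 ± 0.13, adjusted p = 2.12e-05). By contrast, of 10 other immediate early transcription factors tested, 0 were called by limma at 0 h or at 4 h, with 0 and 1 at an unadjusted p under 0.05. At 48 h 1 of these 10, Klf10, was lower in TSA cells (-1.15 ± 0.12, adjusted p = 4.97e-05).

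**Figure D4:**
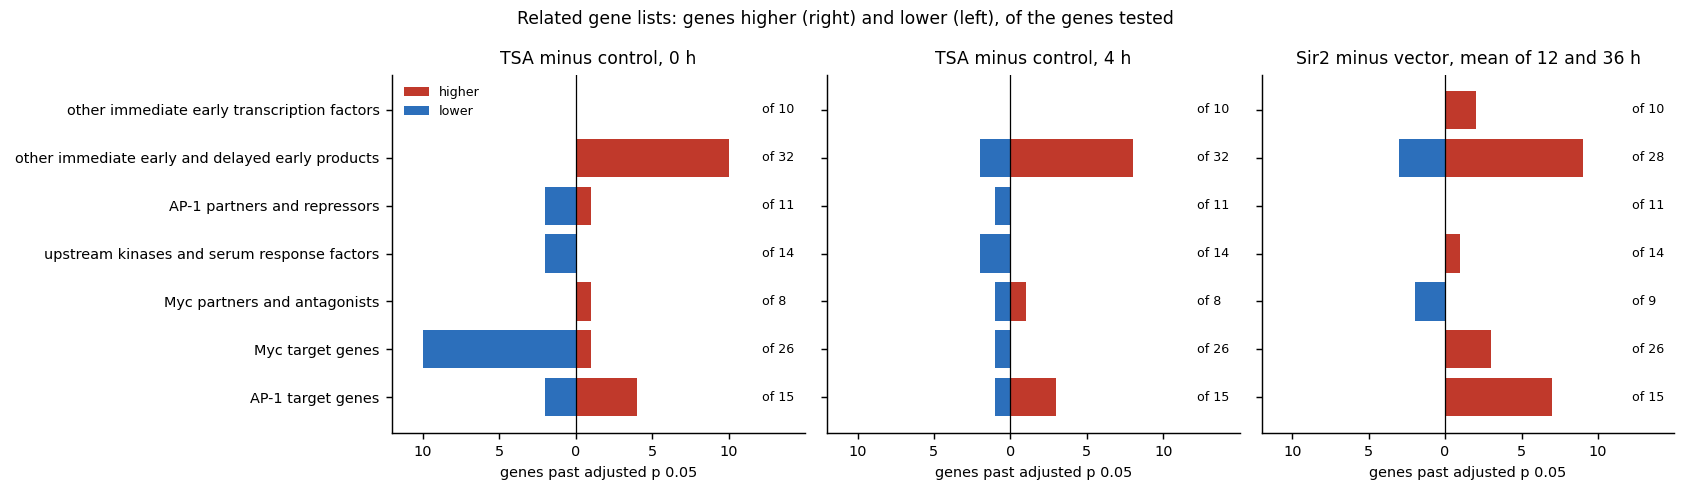
Number of genes past adjusted p 0.05 in 7 lists of related genes, higher to the right (red) and lower to the left (blue) of 0, with the number tested at the right edge, for TSA minus control at 0 h and 4 h and the average Sir2 minus vector difference. Of 32 other immediate early and delayed early products 10 were higher with TSA at 0 h, and of 26 Myc target genes 10 were lower and 1 higher. At 0 h 17.9% of all probe sets were called in either direction.

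Of 26 known Myc target genes tested, 10 were lower and 1 higher in TSA cells at 0 h, when Myc itself was not called and 17.9% of all probe sets were. At the times when Myc was lower, 0 were higher and 1 lower at 24 h (5.94% of all), and 4 were higher and 6 lower at 48 h (19.6%). At 4 h 0 were higher and 1 lower (11.4%), and at 12 h limma called 0, with 8 at an unadjusted p under 0.05. At 0 h the lower ones included Srm, spermidine synthase (-0.97 ± 0.15, adjusted p = 0.000523), the nucleolar proteins Nop56 (-0.71 ± 0.12, adjusted p = 0.00118) and Npm1 (-0.92 ± 0.17, adjusted p = 0.00192), and Hspd1, a mitochondrial chaperone (-0.61 ± 0.11, adjusted p = 0.00212). Mxi1, a Max partner that opposes Myc, was higher in TSA cells at 0 h (0.91 ± 0.14, adjusted p = 0.000616) and lower at 24 h (-1.07 ± 0.14, adjusted p = 0.000493). It was 1 of 8 Myc partners and antagonists called at each of these times, where 17.9% and 5.94% of all probe sets were called. Of 15 AP-1 target genes, 4 were higher and 2 lower in TSA cells at 0 h (17.9% of all probe sets called), and 3 were higher and 1 lower at 4 h (11.4%). Timp1, an inhibitor of matrix metalloproteinases, was higher at 0 h (1.37 ± 0.16, adjusted p = 0.000104) and 4 h (0.70 ± 0.16, adjusted p = 0.0162). Of 14 upstream kinases and serum response factors, 0 were higher and 2 lower at 0 h, a share below the 17.9% of all probe sets called, and these were the growth factor receptors Pdgfrb (-1.57 ± 0.24, adjusted p = 0.000677) and Fgfr1 (-0.83 ± 0.13, adjusted p = 0.00071). Nab2, a corepressor that binds Egr proteins, was lower in TSA cells at 0 h (-0.90 ± 0.16, adjusted p = 0.00144) and higher at 48 h (1.02 ± 0.16, adjusted p = 0.000694). It was 1 of 2 Egr corepressors called at each time, where 17.9% and 19.6% of all probe sets were called. Of 11 AP-1 partners and repressors, 1 was higher and 2 lower at 0 h (17.9% of all probe sets called), 0 and 3 at 24 h (5.94%) and 1 and 5 at 48 h (19.6%). The 3 lower ones at 24 h included Atf5 (-1.84 ± 0.23, adjusted p = 0.000423) and Atf4 (-0.86 ± 0.16, adjusted p = 0.00655), both of the amino acid stress response.

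In the Sir2 arm, 9 of 28 other immediate early and delayed early products were higher and 3 lower on average, and 7 of 15 AP-1 target genes were higher and 0 lower, where 12.6% of all probe sets were called. The median log2 change of the AP-1 targets was 0.43, where that of all probe sets tested was -0.01. Hmga2, a chromatin protein of undifferentiated cells, averaged 316 in Sir2 cells and 47 in vector cells at 12 h (2.53 ± 0.24, adjusted p = 8.43e-05). Ccnd1, the G1 cyclin D1, averaged 572 in Sir2 cells and 209 in vector cells (1.41 ± 0.11, adjusted p = 1.37e-05). At 36 h Plin2, a lipid droplet coat protein, averaged 1101 in Sir2 cells and 333 in vector cells (1.70 ± 0.09, adjusted p = 3.32e-06). Dusp6, an ERK phosphatase, and Phlda1 were higher in Sir2 cells at 12 h, at 1.75 ± 0.15 (adjusted p = 2.75e-05) and 1.24 ± 0.11 (adjusted p = 3.89e-05). Of 10 other immediate early transcription factors, 3 were higher at 12 h (5.55% of all probe sets called), Atf3 (0.57 ± 0.11, adjusted p = 0.0116), Egr2 (0.61 ± 0.13, adjusted p = 0.0157) and Ier2 (0.50 ± 0.11, adjusted p = 0.0244), and 1 at 36 h (9.26%), again Atf3 (0.43 ± 0.11, adjusted p = 0.0336). Of 26 Myc target genes, 3 were higher and 0 lower on average, a share near the 12.6% of all probe sets. Of 11 AP-1 partners and repressors limma called 0, with 1 at an unadjusted p under 0.05. These list genes moved beside lower summed muscle markers in Sir2 cells, as given above, and the part of the markers in them was not tested.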

How the data were processed

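RNA of C2C12 cells was measured on 32 arrays, 20 in the TSA arm (10 groups, 2 arrays each) and 12 in the Sir2 arm (4 groups, 3 each), and grouped by title and description in the labels. The deposited values are linear intensities, 1 per probe set and array. Those of the Sir2 arm come from MAS5, per the submitters' processing notes, with no version given, and for the TSA arm, whose deposited intensities include values below 0, the tool is not given in the sources used. Of 12488 probe sets 66 controls were left out, and the symbols of 10817 of the 10833 probe sets with 1 symbol were updated through RefSeq.

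Values below 0 were set to 0, a pseudocount was added (137.7, the 40th percentile, in the TSA arm, where the planned 20th was -13.7, and 8.82, the 20th, in the Sir2 arm) and log2 was taken. Probe sets with a mean of at least 144.9 and 31.1, the 40th percentile of the means, were tested, 7453 in each arm. A separate linear model was fitted to each arm (limma 3.58.1, R 4.3.3), with a mean for every group (10 and 8 residual and 2.45 and 3.93 prior degrees of freedom), Benjamini-Hochberg adjustment over all probe sets of a comparison and a threshold of 0.05, and the procedure was tested on simulated data. In the simulated data, TSA minus control at single times recovered 5.97% to 10.4% of log2 changes of 0.5 and 56.7% to 62.7% of 1.0. The average of 5 times recovered 67.2% and 94%. Sir2 minus vector at single times recovered 29.9% to 31.3% and 82.1% to 92.5%. A gene not called may therefore still differ, above all at single times. The simulation changed a smaller share of probe sets than was called in any of these comparisons of the real data. Recovery after the adjustment depends on that share, so the percentages hold only for the simulated setting. A gene is given by its probe set of highest mean. Comparisons were TSA with control at each time and averaged, an F test for a difference between times, each time with 0 h, Sir2 with vector at each time, averaged and as a difference between times, and 36 h with 12 h. Of each related list up to 4 called genes of smallest p may be named, and of each member the 3 genes of highest correlation among 3298 probe sets whose group means span at least 1 log2 unit. The genes and lists were chosen with earlier results of these data known. Alternatives changed the scaling, pseudocount, log scale, filter, variance estimate, block, covariate, arrays fitted and probe sets used, and left out each array. The number of arrays limits the precision. Tables and figures used Python 3.11.15, numpy 2.4.6, pandas 2.3.3 and matplotlib 3.10.9. Sequence windows were read from RefSeq promoter tables.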

Additional observations from a re-analysis of the deposited data

Results flagged for a closer look

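The size of the TSA effect differed between the 5 times for 4 of the 10 genes in limma's F test of the difference itself. For Klf4 (adjusted p = 8.53e-05) the change was 1.0 ± 0.19 at 0 h and -2.03 ± 0.19 at 24 h. For Myc (adjusted p = 0.00254) it was 0.32 ± 0.16 at 12 h and -1.04 ± 0.16 at 24 h. For Ier3 (adjusted p = 0.00796) it was 1.19 ± 0.19 at 0 h and -0.29 ± 0.19 at 24 h, and for Jund (adjusted p = 0.0199) it was 0.78 ± 0.19 at 0 h and -0.39 ± 0.19 at 12 h. Groups of 2 and 3 arrays were too small for a test of outlying arrays.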

How the results depend on the processing

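Counts are of the 10 genes (9 in the Sir2 arm) past the threshold, and counts within 1.5 times the reported one are not given. With only the arrays of the groups compared in the fit, 0 were called for TSA minus control at 4 h, 24 h and 48 h, for control 4 h and control 12 h against control 0 h and for TSA 4 h against TSA 0 h, 1 for TSA 48 h against TSA 0 h and for Sir2 minus vector at 36 h, and 2 for control 48 h against control 0 h and for Sir2 minus vector at 12 h. With no filter on dim probe sets, 1 was called for control 24 h against 0 h, TSA 48 h against 0 h and Sir2 minus vector at 36 h, and 2 for Sir2 minus vector at 12 h and on average. With the 60th percentile filter, 1 was called for TSA minus control at 24 h and 48 h and for Sir2 36 h minus Sir2 12 h, and fewer genes were tested. The covariate for titles with the suffix b left 1 call for control 24 h against 0 h and for TSA 48 h against 0 h, and the smaller pseudocount left 1 for control 24 h against 0 h. With the replicate number as a block, 1 was called for Sir2 minus vector at 36 h, with an adjusted p of 0.0611 for both Ier3 and Myc, and the Sir2 average of Egr1 (0.0625) and Myc in TSA cells at 24 h (0.0512) and 48 h (0.0503) against 0 h were not called. The numbers were not taken as pairs, since same-numbered arrays did not deviate together in every pair (residual correlations from -0.0997 up to 0.228 for TSA with control and from -0.314 up to 0.116 for Sir2 with vector). Of the arrays, 8 of 20 in the TSA arm and 6 of 12 in the Sir2 arm correlated best with their own number. In the TSA arm the 2 arrays of a group deviate from their mean by equal and opposite amounts. The arrays of a time are therefore not separate observations there, and the 8 are those at 12 h (residual correlation 0.172) and 24 h (0.228). The cause of these moves was not tested beyond the fewer arrays or genes in the fit.

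Leaving out 1 array at a time, TSA minus control called 2 to 7 genes at 0 h, 2 to 3 at 4 h, 0 to 1 at 12 h, 2 to 3 at 24 h, 0 to 5 at 48 h and 6 to 8 on average, and the F test 3 to 7. Control cells against 0 h gave 0 to 2 at 4 h, 0 to 1 at 12 h, 1 to 3 at 24 h and 3 to 5 at 48 h, and TSA cells against 0 h gave 2 to 5, 2 to 4, 2 to 3 and 1 to 3 at these times. Sir2 minus vector gave 1 to 4 at 12 h, 0 to 3 at 36 h, 2 to 5 on average and 0 to 1 for the difference between times, Sir2 36 h minus 12 h gave 3 to 4 and vector 36 h minus 12 h 2 to 4. Of single-gene results, 3477 stayed on the same side of the threshold without 1 array, 133 lost a call and 37 gained one. A result was counted as reversed only where its direction changed and at least 1 of the fits made a call, and 1 was. That was Fosb: TSA minus control at 48 h was -0.50 without control 48 h replicate 1 and 0.42 without control 48 h replicate 2, against -0.04 with all arrays. Changes of direction between fits that made no call are among the 3477 and were not counted. Under the other alternatives 2024 stayed on the same side of the threshold, with such changes of direction again not counted, 52 lost a call and 13 gained one. Quantile normalization and median centring moved the median change of all probe sets by less than 0.1. On each array of the TSA arm 21.0% to 24.2% of probe sets read 0 or less, and levels there have no order.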
